A study of Homo sapiens with 96 samples.

Results

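K562 cells named SF in the labels were compared with and without the ligand 5PhIAA, in 3 libraries with ligand and 3 with the solvent DMSO, which are 6 of the 96 libraries of the series. All genes of the count table were read in these 6 libraries. K562 is a leukaemia line with erythroid features, and 5PhIAA is an auxin derivative used to make degron-tagged proteins degrade. The table, named for KDM2B mutants, holds 30 libraries of 5 cell lines named SF, LF, dLRRS, dCxxC and EV, each with ligand and DMSO. Its labels give for each library the K562 line, the name and the treatment only. They do not spell out SF or EV, do not say whether these lines carry a KDM2B degron for 5PhIAA to act on, and give no dose, time, clone or separate culture, so that p-values measure the spread between these libraries, which may be technical. The question asked of SF cells is how much of the ligand response of EV cells they show.

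The study concerns PRC1.1, a variant Polycomb repressive complex that ubiquitinates histone H2A. Its subunit KDM2B has a CXXC zinc finger that binds unmethylated CG dinucleotides at CpG islands and brings the complex to promoters. BCOR or BCORL1, PCGF1, RING1 or RNF2 and RYBP are other subunits, and developmental regulators, receptors and signalling genes are common targets of Polycomb repression.

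Promoters of 4 genes on which the results turn are shown to give the CG content of such sites. DDX46 and INSR were raised by ligand in SF cells, and NOTCH2 and PDGFA were raised in EV cells with no call in SF cells. Each is the 300 bases from RefSeq on GRCh38.p14, 250 before to 50 after the annotated start, written along the gene's own strand with every CG in capitals. They lie at chr5:134758529-134758828 on the plus strand for DDX46 and, on the minus strand, at chr19:7294365-7294664 for INSR, chr1:120069613-120069912 for NOTCH2 and chr7:520177-520476 for PDGFA.
DDX46: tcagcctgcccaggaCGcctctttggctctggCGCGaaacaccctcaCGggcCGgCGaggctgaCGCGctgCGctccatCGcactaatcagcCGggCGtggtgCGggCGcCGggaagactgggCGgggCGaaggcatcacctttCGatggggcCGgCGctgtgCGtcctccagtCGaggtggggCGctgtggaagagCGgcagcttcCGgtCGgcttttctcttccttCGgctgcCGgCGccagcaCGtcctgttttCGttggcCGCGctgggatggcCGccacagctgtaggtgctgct
INSR: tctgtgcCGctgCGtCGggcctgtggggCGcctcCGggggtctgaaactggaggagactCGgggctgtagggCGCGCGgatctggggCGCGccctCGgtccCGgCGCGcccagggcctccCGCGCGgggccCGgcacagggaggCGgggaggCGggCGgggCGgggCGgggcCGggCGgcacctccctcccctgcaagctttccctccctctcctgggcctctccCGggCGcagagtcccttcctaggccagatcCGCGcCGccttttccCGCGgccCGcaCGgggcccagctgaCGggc
NOTCH2: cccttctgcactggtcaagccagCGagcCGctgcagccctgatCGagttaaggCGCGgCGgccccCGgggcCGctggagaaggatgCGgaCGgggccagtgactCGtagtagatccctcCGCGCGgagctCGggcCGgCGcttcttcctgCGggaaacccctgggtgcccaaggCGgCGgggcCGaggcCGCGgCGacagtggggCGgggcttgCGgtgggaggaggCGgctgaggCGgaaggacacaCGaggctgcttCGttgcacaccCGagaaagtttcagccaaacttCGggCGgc
PDGFA: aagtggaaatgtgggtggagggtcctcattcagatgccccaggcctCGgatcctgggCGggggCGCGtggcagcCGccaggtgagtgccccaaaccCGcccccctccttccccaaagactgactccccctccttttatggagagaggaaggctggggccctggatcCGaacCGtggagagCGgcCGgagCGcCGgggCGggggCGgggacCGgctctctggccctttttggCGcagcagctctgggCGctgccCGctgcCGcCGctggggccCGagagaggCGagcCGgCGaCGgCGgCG
The DDX46 window holds 34 CG dinucleotides, INSR 36, NOTCH2 33 and PDGFA 27. CG reads the same on both strands and was counted without overlap with another motif. As many or more were held by 12.5% of the 27305 promoters in the table for INSR and by 27.9% for PDGFA. A promoter was matched for 10734 of the 15910 genes tested, under 80%, so a comparison of CG content between gene sets is void. All 4 windows were above the median of 26 over the matched genes tested. Of the other genes described below whose window was read, SLC12A7 holds 39 and BCOR, called higher in EV cells and not in SF cells, holds 7.

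The 6 SF libraries held 12.64 to 17.93 M counts. All 10 K562 markers were above 1 CPM (counts scaled to a common library size) in every SF group, with sums of 3649 to 3897 CPM with ligand and 2972 to 3387 CPM with DMSO. The 10 lymphoid markers summed to 7.97 to 8.98 CPM with ligand and 6.21 to 9.28 CPM with DMSO, with MS4A1 at 0 in both groups. Of the fibroblast and epithelial markers 1 of 10 was above 1 CPM, EPCAM, and LUM, PDGFRA, KRT5 and KRT14 were at 0. One library of the EV comparison stood apart. Library 1 of EV with ligand held 2.35 M counts and 8.06% mitochondrial reads, against 1.02% to 1.55% in the other SF and EV libraries, and without it EV cells called 509 genes instead of 520, and the SF minus EV difference 113 instead of 116.

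KDM2B, the subunit that the table's study centres on, was read at 950, 903 and 1086 CPM in SF cells with ligand, against 895, 924 and 874 CPM in SF cells with DMSO. EV cells read it at 77.96, 99.8 and 86.5 CPM with ligand, against 84.3, 79.6 and 82.3 CPM with DMSO. The ligand groups overlapped their DMSO groups in both lines, and SF cells stood above EV cells in every library. SF cells with DMSO differed from EV cells with DMSO by 3.45 in log2 fold change (edgeR's quasi-likelihood test, adjusted p = 5.5e-28). Reads of an added construct and of the cell's own gene cannot be told apart in these counts.

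Few genes were called for a ligand effect in SF cells. Calls needed an adjusted p under 0.05 together with a log2 fold change beyond 0.585 in either direction, which is 1.5-fold. By edgeR's quasi-likelihood test with Benjamini-Hochberg adjustment, 3 of 15910 genes were called (0.0189%), 3 higher and 0 lower. An adjusted p under 0.05 without the fold threshold was met by 10 genes (0.0629%), 8 higher and 2 lower. An unadjusted p under 0.05 was met by 1201 genes (7.55%), and DESeq2 called 4. In EV cells the same rule called 520 genes (3.27%), 469 higher (2.95%) and 51 lower (0.321%), and 1785 had an adjusted p under 0.05 (11.2%). The median standard error of a gene's log2 fold change was 0.107 in SF cells and 0.113 in EV cells. The 95% interval of the SF ligand effect lay within the fold threshold on both sides for 10819 genes (68.0%). Among the 469 genes called higher in EV cells it did so for 109 (23.2%). For most of the 469 a 1.5-fold change in SF cells is therefore not excluded. The SF effect itself was above 0.585 in 107 of the 469 and in 578 of all genes. In bulk RNA, fewer cells of a kind and less RNA per cell cannot be told apart.

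DDX46, an RNA helicase of the U2 spliceosome, had 488, 459 and 461 CPM in SF cells with ligand, against 301, 280 and 292 CPM in SF cells with DMSO. EV cells had 497, 431 and 428 CPM with ligand, against 296, 288 and 276 CPM with DMSO. The ligand groups lay above the DMSO groups in both lines without overlap. The log2 fold change was 0.69 ± 0.055 (SE) in SF cells (adjusted p = 1.92e-11) and 0.64 ± 0.056 in EV cells (adjusted p = 2.8e-11). The SF effect minus the EV effect was 0.05, with a 95% interval of -0.11 to 0.20 (adjusted p = 0.91). DDX46 also stood higher with ligand in the inhibitor table (0.73, adjusted p = 2.88e-05). That table is named for KDM2B-mAID, the KDM2B degron. It holds a separate set of K562 libraries with DMSO, 5PhIAA, the EZH2 inhibitor GSK343 or both agents, and only ligand against DMSO is used. The KDM2B time course is a degron line given 5PhIAA and set against untreated cells. At its 72 h the log2 fold change of DDX46 was 0.55 (adjusted p = 6.07e-05), in libraries that SF and EV do not share. LF cells showed 0.69, dCxxC cells 0.43 and dLRRS cells 0.38.

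SLC4A1, the red-cell anion exchanger, had 17.8, 18.7 and 20.5 CPM in SF cells with ligand, against 13.1, 10.7 and 9.81 CPM in SF cells with DMSO. EV cells had 110, 109 and 127 CPM with ligand, against 104, 92.8 and 97.2 CPM with DMSO. The SF groups did not overlap, and every SF library was far below every EV library. The log2 fold change was 0.77 ± 0.11 in SF cells (adjusted p = 7.83e-05) and 0.25 ± 0.079 in EV cells (adjusted p = 0.033). Their difference was 0.52 with an interval of 0.25 to 0.79 (adjusted p = 0.033), under the fold threshold. The ligand effect on SLC4A1 was 0.62 in dCxxC cells (not called), 0.16 in LF cells and -0.09 in dLRRS cells.

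INSR, the insulin receptor, had 1.69, 1.98 and 0.812 CPM in SF cells with ligand, against 0.628, 0.451 and 0.519 CPM in SF cells with DMSO. EV cells had 6.76, 8.54 and 9.99 CPM with ligand, against 3.78, 3.60 and 3.82 CPM with DMSO. The groups did not overlap in either line. These SF values rest on 68 counts with ligand and 27 with DMSO over 3 libraries each. The log2 fold change was 1.497 in SF cells (95% interval 0.88 to 2.11, adjusted p = 0.0251) and 1.27 in EV cells (adjusted p = 6.3e-08), and the difference of 0.22 had an interval of -0.49 to 0.94. It was 1.37 in dLRRS cells (adjusted p = 1.1e-06), 0.45 in LF cells and 0.17 in dCxxC cells, the last 2 not called. The SF call was lost in 6 of 13 alternatives, with adjusted p from 0.00204 to 0.364, and the 6 are leaving out ligand library 1 or 2 or any DMSO library of SF, and fitting the EV and SF groups alone.

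CD24, a cell-surface glycoprotein, moved in opposite directions in the 2 lines. It had 55.6, 43.7 and 45.6 CPM in SF cells with ligand, against 36.5, 30.2 and 34.1 CPM in SF cells with DMSO. EV cells had 38.3, 30.6 and 33.3 CPM with ligand, against 44.2, 41.6 and 49.7 CPM with DMSO. The groups of each line did not overlap. The log2 fold change was 0.52 in SF cells (adjusted p = 0.00069) and -0.46 in EV cells (adjusted p = 0.00031), and the difference of 0.98 was called (interval 0.74 to 1.22, adjusted p = 2.1e-06). The ligand effect on CD24 was 0.01 in LF cells, 0.14 in dCxxC cells and -0.61 in dLRRS cells. It was -0.47 in the inhibitor table and -1.38 at 72 h of the time course. SF minus LF (0.51) and SF minus dCxxC (0.38) were not called.

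The other 6 genes past an adjusted p of 0.05 in SF cells were below the fold threshold. They were the water channel gene AQP3 (log2 fold change 0.53), the antiproliferative gene BTG2 (0.34), the transcript WARS2-AS1 (0.35), the signal transducer gene STAT3 (0.22), the RNA helicase gene DDX42 (-0.27) and CCDC106 (-0.47). In EV cells these effects were 0.48, 0.27, 0.24, 0.14, -0.31 and -0.16 in the same order. Of the 10 genes, 9 had the same sign in EV cells, 8 of them with an adjusted p under 0.05 there. Of all genes, 11.2% had an adjusted p under 0.05 in EV cells, in either direction. The sign was also the same for 10 in LF cells, 10 in dCxxC cells and 6 in dLRRS cells. Of these, 1, 1 and 4 had an adjusted p under 0.05 in those lines. AQP3 had 17.2, 17.5 and 16.2 CPM in SF cells with ligand, against 13.8, 11.8 and 9.87 CPM in SF cells with DMSO, with no overlap. DDX42 had 162, 166 and 173 CPM with ligand, against 191, 213 and 198 CPM with DMSO in SF cells, also with no overlap. For 8 of the 10, all but DDX46 and SLC4A1, the adjusted p exceeded 0.05 in at least 1 alternative.

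**Figure D1:**
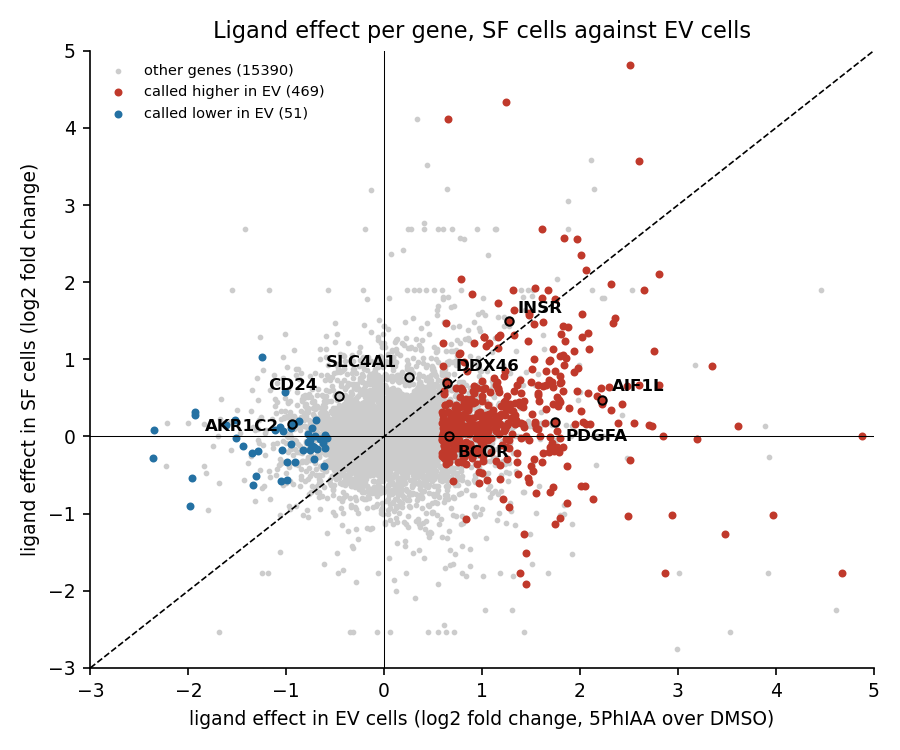
Each point is a gene, with its log2 fold change for 5PhIAA over DMSO in EV cells across and in SF cells upward; red and blue mark the 469 and 51 genes called higher and lower in EV cells, and the dashed line marks equal effects. Red points spread along the horizontal axis, with a median of 0.16 and quartiles of -0.04 and 0.535 in SF cells. DDX46 and INSR lie near the line, and 21 genes lie outside the axes. Rows of points at fixed heights are genes with few counts in SF cells.

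The effects were next read over genes that ligand raised in libraries outside the SF and EV comparisons. The inhibitor table called 309 genes higher with ligand (2.31% of 13374), and 308 of them were tested here. Their median log2 fold change was 0.17 in SF cells and 0.90 in EV cells, beside 0.01 in SF cells and 0.01 in EV cells over all genes tested. EV cells called 217 of the 308 higher, and SF cells called 2. The effect was above 0 in 71.4% of them in SF cells and 99.7% in EV cells, against 51.7% and 52.4% of all genes. The SF interval lay wholly above 0 for 52 of the 308 and 632 of all 15910 genes, and its upper bound was below the EV effect for 182 of the 308 (59.1%) and 12.9% of all genes. The SF effect exceeded the EV effect in 32 of the 308, and the median of the gene-wise differences was -0.71.

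Lists from the KDM2B time course gave the same order. Of 951 genes called higher at 72 h (6.55% of 14524), 931 were tested, with medians of 0.08 in SF cells and 0.54 in EV cells. The ratio of these medians was 0.147, and the slope of SF on EV effects through the origin was 0.249, which noise in the EV effects lowers. Leaving out single libraries gave ratios of 0.080 to 0.177, the lowest without DMSO library 3 of SF (0.0897 without ligand library 3), and slopes of 0.184 to 0.339. The 535 genes called higher at 8 h (3.68%) had medians of 0.11 in SF cells and 0.70 in EV cells over 530 tested. The 1385 called higher at 24 h (9.54%) had medians of 0.06 in SF cells and 0.34 in EV cells over 1359 tested. In a further table of KDM2B-mAID cells, the J2_7 table, ligand called 312 genes higher (2.13% of 14649). The 272 tested here had medians of 0.17 in SF cells and 0.95 in EV cells. Genes lowered by ligand had medians nearer 0 in both lines, at -0.05 in SF cells and -0.39 in EV cells over the 32 that the inhibitor table called lower (0.239%).

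**Figure D2:**
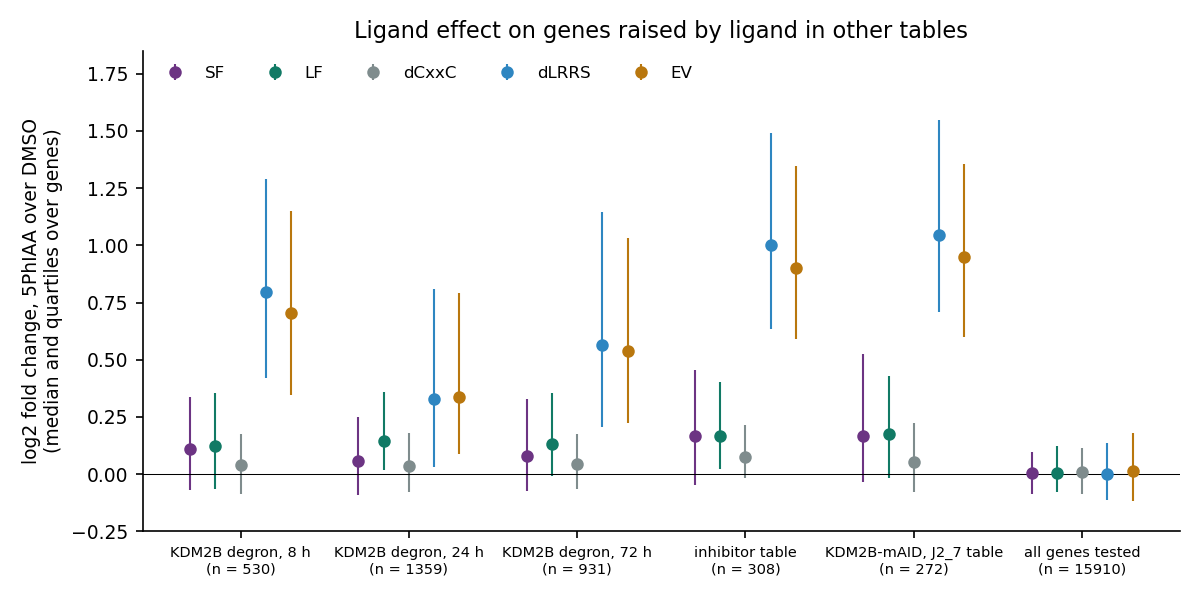
Median and quartiles over genes of the log2 fold change for 5PhIAA over DMSO in the 5 lines, for genes that ligand raised in other tables and for all genes tested; n is the number of genes tested. In each list the effects of SF, LF and dCxxC cells sit below those of dLRRS and EV cells. For the inhibitor table they are 0.17, 0.17, 0.08, 1.003 and 0.90 in that order. The plot shows effects and not levels. With DMSO, levels of the inhibitor-table genes were above EV cells in dCxxC cells. They were below EV cells in LF and dLRRS cells and lowest in SF cells.

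Levels of these genes also differed between the lines before ligand. With DMSO, 2171 genes were called between SF and EV cells (13.6%), 664 higher (4.17%) and 1507 lower (9.47%), and 6357 had an adjusted p under 0.05 (40%). Of the 308 inhibitor-table genes 13 were called higher and 179 lower, with a median of -1.08. With ligand in both lines, 2419 genes were called (15.2%), 605 higher (3.8%) and 1814 lower (11.4%), and 5851 had an adjusted p under 0.05 (36.8%). Of the 308, 259 were called lower in SF cells with ligand. SF cells with ligand were compared with EV cells that had received DMSO, where 2144 genes were called (13.5%), 9.05% of all genes being called lower. Of the 308, 15 were called higher and 158 lower in SF cells. By sign alone, 250 of the 308 (81.2%) stood lower in SF cells, against 52.0% of all genes. Per library, the median level of the 308 genes relative to the EV DMSO mean was -0.55, -0.55 and -0.53 in SF cells with ligand, against -0.67, -0.60 and -0.71 in SF cells with DMSO. In EV cells it was 0.72, 0.78 and 0.79 with ligand, against 0.00, 0.01 and 0.01 with DMSO. The SF ligand libraries lay above the SF DMSO libraries without overlap, and every SF library lay below every EV library. For the 8 h and 72 h time-course lists and the genes called higher in dLRRS cells, the SF ligand and DMSO libraries overlapped, at -0.32 to -0.28 with ligand and -0.40 to -0.32 with DMSO for the 72 h list. The dCxxC libraries stood at the other end for the 308 genes, at 1.21 to 1.24 with ligand and 1.148 to 1.203 with DMSO, above every EV library. The small ligand effects of SF and dCxxC cells thus started from opposite levels. LF and dLRRS libraries with DMSO also lay below the EV DMSO libraries, at -0.50 to -0.36 and -0.39 to -0.32. Their median ligand effects on the 308 genes were 0.17 and 1.003. Of the 308, 21 had at most 3 counts in an SF group, and without them the SF median was 0.15.

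**Figure D3:**
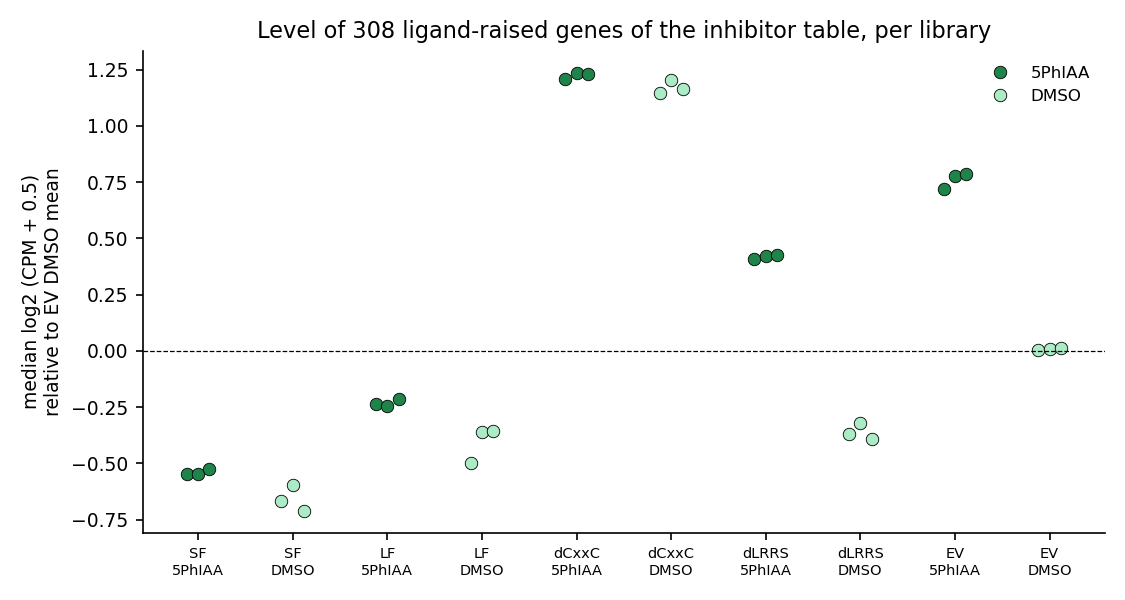
Median level, per library, of 308 genes that ligand raised in the inhibitor table, as log2 of CPM plus 0.5 relative to the mean of the EV DMSO libraries; dark points are ligand libraries and light points DMSO libraries. SF libraries lie between -0.71 and -0.53, below the EV DMSO libraries at 0.00 to 0.01 and the EV ligand libraries at 0.72 to 0.79.

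The difference of the ligand effects, SF minus EV, was tested gene by gene. It was called for 116 genes (0.729%), 14 higher (0.088%) and 102 lower (0.641%), and 243 had an adjusted p under 0.05 (1.53%). Of the 102 lower, 83 were genes called higher in EV cells, and of the 14 higher, 10 were called lower in EV cells. This difference and the EV calls share the EV libraries, so these overlaps are a description. Among genes chosen elsewhere, the inhibitor-table list held 46 of 308 called lower (14.9%) and 0 called higher, and the dLRRS risers held 70 of 508 called lower (13.8%). Ligand called 542 genes in dLRRS cells (3.41%), which share no library with SF or EV cells. The SF effect differed from theirs for 223 genes (1.4%), 24 higher (0.151%) and 199 lower (1.25%), and 438 had an adjusted p under 0.05 (2.75%). Of the 102 lower against EV cells, 68 were also lower against dLRRS cells, which is 68 of 199 of that list. Both differences use the SF libraries. SF minus LF called 0 genes by edgeR (773 at an unadjusted p under 0.05, 4.86%; 0 by DESeq2), and SF minus dCxxC called 0 (634, 3.98%; 0 by DESeq2). These are differences of ligand effects, and the levels of SF and dCxxC cells with DMSO lay on opposite sides of EV cells, as given above for the 308 genes.

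Genes with the largest rise in EV cells, from AIF1L to PCDH1 below, were picked on EV ligand and DMSO libraries that did not overlap. The lack of overlap in EV cells is therefore given by the choice, and no such condition was set in SF cells. A mean of at least 2 CPM was asked over the SF and EV groups together. Among these genes, NOTCH2, PDGFA, SLC12A7 and PCDH1 averaged under 2 CPM in both SF groups and met it through EV cells. AIF1L, an actin-binding protein gene, had 3.70, 4.06 and 3.92 CPM in SF cells with ligand, against 3.20, 2.31 and 2.94 CPM in SF cells with DMSO. EV cells had 10.4, 15.04 and 16.4 CPM with ligand, against 3.38, 3.34 and 2.92 CPM with DMSO. The groups did not overlap in either line, and the DMSO levels of the lines overlapped. The log2 fold change was 0.48 in SF cells (95% interval 0.14 to 0.82, adjusted p = 0.44) and 2.22 in EV cells (adjusted p = 1.3e-15). The difference was -1.75 (interval -2.19 to -1.30, adjusted p = 3.6e-06).

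NOTCH2, a Notch receptor, had 2.09, 2.09 and 1.29 CPM in SF cells with ligand, against 1.32, 1.18 and 1.44 CPM in SF cells with DMSO. EV cells had 8.11, 6.67 and 6.75 CPM with ligand, against 2.00, 2.17 and 1.67 CPM with DMSO. The SF groups overlapped and the EV groups did not. The difference of effects was -1.32 (interval -1.96 to -0.68, adjusted p = 0.018), and the call was lost in 2 of 18 alternatives.

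PDGFA, a growth factor of the platelet-derived family, had 0.964, 0.790 and 0.744 CPM in SF cells with ligand, against 0.440, 1.18 and 0.519 CPM in SF cells with DMSO. EV cells had 19.8, 17.7 and 16.7 CPM with ligand, against 5.21, 5.46 and 4.93 CPM with DMSO. The SF groups overlapped, and with DMSO the SF level was already lower (log2 fold change -2.84). The effect was 0.18 in SF cells (interval -0.49 to 0.85) and 1.74 in EV cells, and the difference was -1.56 (adjusted p = 0.013), with the call lost in 2 of 18 alternatives. SLC12A7, a potassium-chloride cotransporter gene, showed a like pattern at 0.28 to 0.48 CPM in SF cells with ligand and 0.23 to 0.56 CPM in SF cells with DMSO, and its called difference of -1.99 was lost in 8 of 18 alternatives.

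Other genes of this group were DENND11, LRP4 (a receptor for agrin and Wnt signals), EMILIN2 (a matrix glycoprotein), MIR9-1HG and PLEKHO1, with differences of -1.38, -1.70, -1.47, -1.999 and -1.44. The MIR9-1HG call was lost in 8 of 18 alternatives, and the other 4 in 0. Their SF effects ran from -0.53 to 0.39 and their EV effects from 1.45 to 1.77. KHDRBS3, NPTXR and PCDH1 also rose in EV cells, by 1.73, 1.496 and 1.40. Their differences of -1.08, -0.79 and -1.41 had adjusted p of 0.101, 0.32 and 0.104. A p that misses the threshold does not show that these effects were equal.

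BCOR, the PRC1.1 subunit, had 237, 234 and 256 CPM in SF cells with ligand, against 238, 254 and 234 CPM in SF cells with DMSO. EV cells had 335, 397 and 368 CPM with ligand, against 229, 238 and 232 CPM with DMSO. SF groups overlapped, and the EV groups did not. The effect was 0.00 in SF cells (interval -0.10 to 0.11) and 0.66 in EV cells (adjusted p = 2.1e-12), with a called difference of -0.66 (interval -0.81 to -0.51, adjusted p = 2.7e-07). CCND2, cyclin D2, had 144, 150 and 142 CPM in SF cells with ligand, against 149, 150 and 135 CPM in SF cells with DMSO. EV cells had 340, 330 and 339 CPM with ligand, against 211, 210 and 217 CPM with DMSO. The SF groups overlapped, and the difference of effects was -0.65 (adjusted p = 2.7e-07). Both genes stand at high counts, and neither call was lost in any of 18 alternatives.

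**Figure D4:**
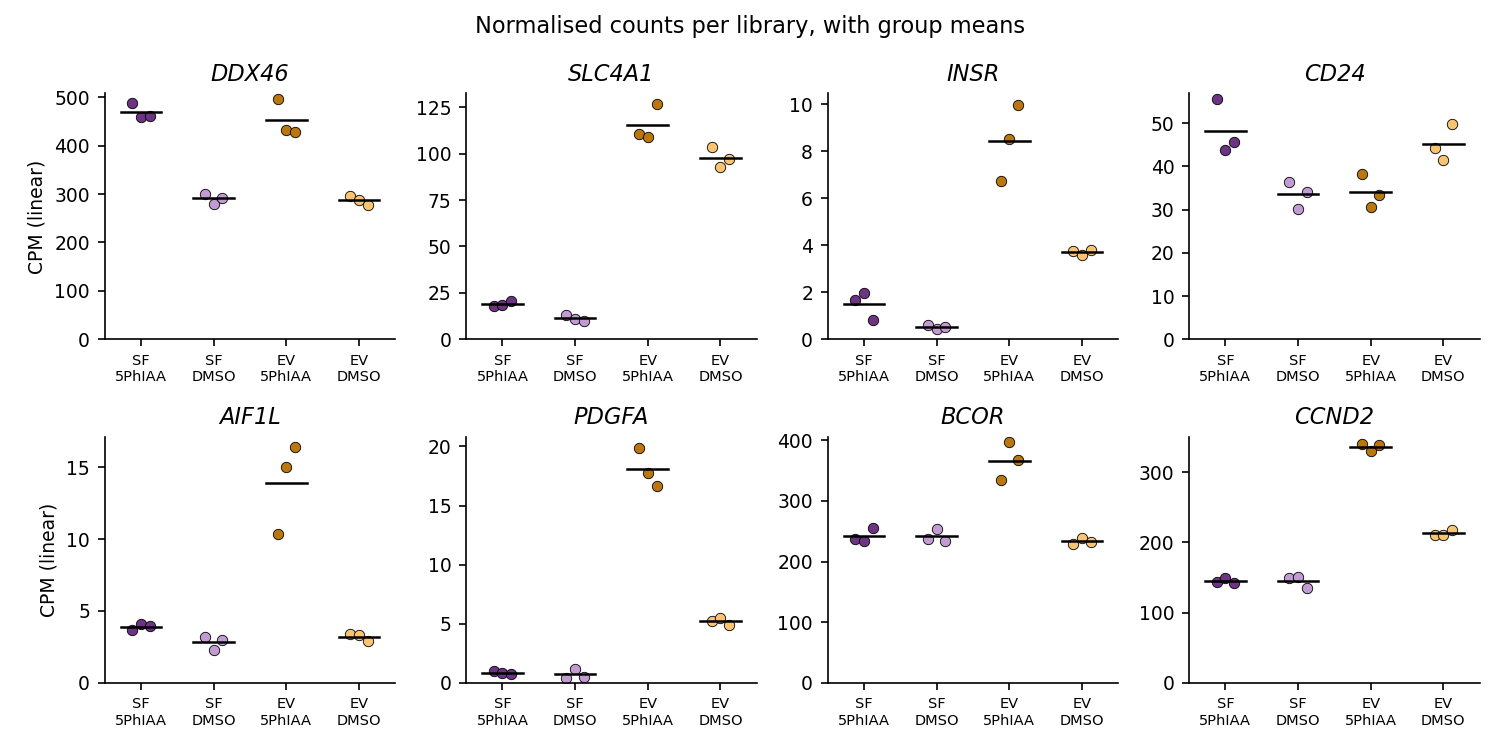
Normalised counts in CPM (linear axis from 0) of 8 genes in each library of SF and EV cells with 5PhIAA and with DMSO; bars are means of 3 libraries. DDX46, SLC4A1 and INSR stand higher with ligand in both lines, CD24 moves in opposite directions, and AIF1L, PDGFA, BCOR and CCND2 were called higher with ligand in EV cells and not in SF cells.

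Genes that ligand lowered in EV cells were fewer. AKR1C1, an aldo-keto reductase of steroid metabolism, had 50.3, 49.1 and 55.9 CPM in SF cells with ligand, against 50.2, 45.1 and 49.0 CPM in SF cells with DMSO. EV cells had 31.5, 31.2 and 30.5 CPM with ligand, against 55.7, 51.2 and 47.9 CPM with DMSO. The SF groups overlapped and the EV groups did not. The effect was 0.11 in SF cells and -0.74 in EV cells, with a difference of 0.85 (adjusted p = 1.6e-05). Its near-identical relative AKR1C2 differed by 1.097, and reads shared between them may be split. RNASE1, DUSP13 and NT5DC4 differed by 0.80, 0.71 and 1.15, and these calls were lost in 14, 10 and 3 of 18 alternatives. IL2RG, S100A1, TLR8-AS1, DNAJC12 and CTSS were called lower in EV cells, with effects of -1.05, -0.997, -0.91, -0.83 and -0.78, and had SF effects of -0.18, -0.33, -0.33, -0.17 and -0.07 with no called difference.

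Gene groups were read from lists of known functions, beside the shares over all genes of 0.0189% called in SF cells, 2.95% called higher and 0.321% lower in EV cells, 0.641% with a difference called lower, and 9.47% called lower in SF than in EV cells with DMSO. With so few calls in SF cells, 0 called members is what most lists of this size would give and says nothing particular about a list. Of 34 tested growth factor, receptor and Notch genes, 1 was called higher in SF cells (INSR) and 0 lower, against 14 higher (41.2%) and 0 lower in EV cells. Their median effects were 0.09 in SF cells and 0.46 in EV cells, and 5 differences were called lower, in PDGFA, NOTCH2, KIT (the stem cell factor receptor), IGF1R (an insulin-like growth factor receptor) and MDK (the growth factor midkine). The KIT call, at -1.02, was lost in 13 of 18 alternatives. The difference was -0.65 for IGF1R (adjusted p = 0.00503) and -0.81 for MDK (adjusted p = 0.000352). ERBB3 and the Notch ligand JAG1 had effects of 1.31 and 1.46 in SF cells, with adjusted p of 0.297 and 0.537, and 1.33 and 1.53 in EV cells.

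Of 26 tested developmental transcription factor genes, 0 were called in SF cells and 10 higher in EV cells (38.5%), with medians of 0.02 in SF cells and 0.77 in EV cells. With DMSO, 13 of the 26 (50%) were called lower in SF than in EV cells, against 9.47% of all genes, and the difference of ligand effects was called for DLX1, a homeobox gene (-1.07, adjusted p = 0.00396). Of 21 adhesion and matrix genes, 0 were called in SF cells and 8 higher in EV cells (38.1%), and differences were called lower for EMILIN2 and the collagen gene COL18A1 (-0.64, adjusted p = 0.0153). Of 18 tested HOX genes, 0 were called in SF cells and 3 higher in EV cells, at low counts. FGFR1, a fibroblast growth factor receptor, had 0 counts in both SF groups, and no fold is given.

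Of 10 PRC1.1 subunit genes, 0 were called in SF cells and BCOR was called in EV cells. Of 44 tested erythroid genes, 1 was called higher in SF cells (SLC4A1) and 1 in EV cells (HBA2, whose reads can be shared with HBA1), which at 2.27% is near the 2.95% of all genes. The ligand effect was above 0 in 33 of the 44 in SF cells (median 0.09) and 18 in EV cells (median -0.05). Over all genes it was above 0 in 51.7% and 52.4%. The SF interval lay wholly above 0 for 14 of the 44 and 632 of all 15910 genes. With DMSO, 24 of the 44 (54.5%) were called lower in SF than in EV cells, against 9.47% of all genes, and 0 higher. TFRC, the transferrin receptor, averaged 2945 CPM in SF cells with ligand and 2414 CPM in SF cells with DMSO (adjusted p = 0.431). Of 26 cell cycle genes, 0 were called in SF cells and CCND2 in EV cells. No integrated stress response gene of 18 and no replication-dependent histone gene of 17 was called in either line, which at 3.27% of all genes called in EV cells is near the share over all genes. Without the fold threshold, EV cells had 8 of the 17 histone genes lower and 4 of the 18 stress genes higher at an adjusted p under 0.05. Over all 15910 genes 626 were lower and 1159 higher by that rule. The ligand effect was above 0 in 0 of the 17 histone genes in SF cells (median -0.13) and in 2 in EV cells (median -0.18). It was above 0 in 1 in LF cells, 1 in dCxxC cells and 15 in dLRRS cells. Of 13 mitochondrially encoded genes, 0 were called in either line, with 13 effects above 0 in SF cells (median 0.20) and 4 in EV cells (median -0.03), and the part of RNA quality in the SF results was not tested. In the remaining lists SF cells called 0 genes, apart from DDX46 among 16 splicing genes.

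Genes at few counts in SF cells limit the reading of folds. NECTIN1, a cell adhesion gene, had 10 counts over 3 SF libraries with ligand and 0 with DMSO, and ARHGEF16 had 7 and 0. No fold is given for them. CDKN1A, a cell-cycle inhibitor, had 2.33, 2.71 and 2.71 CPM in SF cells with ligand, against 2.32, 1.35 and 1.501 CPM in SF cells with DMSO. EV cells had 13.1, 14.2 and 15.8 CPM with ligand, against 8.64, 7.76 and 9.38 CPM with DMSO. The effects were 0.60 in SF cells (interval 0.17 to 1.04, adjusted p = 0.46) and 0.79 in EV cells (adjusted p = 1.5e-05), with a difference of -0.19 (interval -0.70 to 0.32). The groups did not overlap in either line, and the SF level stayed below the EV level in every library.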

How the data were processed

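RNA was measured in K562 cells. Per the labels' protocols, cDNA libraries were built with a KAPA HyperPrep kit after depletion of ribosomal RNA, and run on a NextSeq500, and reads were handled with Strand Avadis NGS 3.0 or STAR on hg38. DESeq2 is named in the same protocols, and Trim Galore 0.6.7 in the submitters' processing notes. The counting program, strand setting and annotation were not given in the sources used, so overlapping and antisense genes may share reads.

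The authors deposited the construct, KDM2B and inhibitor tables as raw counts, and the J2_7 table as one estimated count per symbol (expected count values, not whole numbers), which were rounded here. SF and EV columns were assigned to groups by name, and library numbers are the column order. Of 60605 genes of the construct counts, 15910 passed filterByExpr. All 30 libraries, with 3 a group and 2.35 to 22.61 M counts, were scaled with TMM (factors of 0.947 to 1.026). The model was edgeR 4.0.16 in R 4.3.3, quasi-likelihood with robust dispersion. Adjusted p-values are those of this model, with Benjamini-Hochberg adjustment over all genes. CPM values use TMM library sizes. Standard errors and 95% intervals come from the F statistic and its degrees of freedom. DESeq2 1.42.0 and other settings were alternatives. The other tables were fitted in the same way, each alone (14524, 13374 and 14649 genes), and 12400 symbols of the J2_7 table matched. The fit was tested on simulated data.

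Named genes were the leading ones by adjusted p in SF cells, members of lists with the largest effects, and PRC1.1 genes. Others led by fold among called genes in EV cells and in the difference, with a mean of at least 2 CPM over the SF and EV groups together. Those led by fold in EV cells also had no overlap between the EV ligand and DMSO libraries. IGF1R, MDK, DLX1, COL18A1, ERBB3, JAG1 and TFRC were named after their values were seen. The members and lists were chosen with earlier results of these data known. The BCOR table was not used here.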

Additional observations from a re-analysis of the deposited data

Results flagged for a closer look

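The ligand effect of SF cells differed from that of EV cells in 116 genes by the test of the difference itself, and from that of dLRRS cells in 223 genes. Values below are log2 differences of the ligand effects, SF minus the other line.

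Against EV cells, the reported genes with a lower effect in SF cells were AIF1L (-1.75), NOTCH2 (-1.32), SLC12A7 (-1.99), DENND11 (-1.38), LRP4 (-1.70), PDGFA (-1.56), EMILIN2 (-1.47), MIR9-1HG (-1.999), PLEKHO1 (-1.44), TSPAN9 (-1.91), LARGE2 (-1.73), TMEM243 (-1.57), LIMD2 (-1.47), PXYLP1 (-1.42), BCOR (-0.66), KIT (-1.02) and CCND2 (-0.65). Those with a higher effect were CD24 (0.98), AKR1C2 (1.097), RNASE1 (0.80), DUSP13 (0.71), NT5DC4 (1.15) and AKR1C1 (0.85). The call was lost in 10 of 18 alternatives for PXYLP1, 8 for TSPAN9 and for MIR9-1HG, 7 for LIMD2 and 3 for TMEM243, and in 0 for LARGE2. Under alternatives the SF effect was -1.58 to -0.75 for TSPAN9, -0.76 to -0.28 for LARGE2 and -0.80 to -0.34 for TMEM243. It was -0.85 to -0.31 for LIMD2 and -0.34 to -0.01 for PXYLP1. No alternative called these SF effects, so these differences hold an uncalled SF fall beside the EV rise. CD24 is the one of these that passed an adjusted p of 0.05 in both lines with opposite signs.

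Against dLRRS cells alone, a difference was called for SLC4A1 (0.86), CCDC106 (-0.70), PCDH1 (-2.82), CCND1 (-0.92), CDKN1A (-1.003), ATF3 (-0.98) and GDF15 (-0.73). Of these, CCND1 encodes cyclin D1, and ATF3 and GDF15 respond to cell stress. Their differences from EV cells did not pass the call.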

How the results depend on the processing

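Without the fold threshold, SF cells called 10 genes, EV cells 1785, SF minus EV 243, SF minus dLRRS 438, SF against EV with DMSO 6357 and with ligand 5851. Without the filter on low counts, SF cells called 6, SF minus LF 10 and SF minus dCxxC 1. With the EV and SF groups alone, SF minus EV called 76 genes. DESeq2 called 4 in SF cells, 409 in EV cells and 92 for SF minus EV.

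Leaving out each library in turn, SF cells called 2 to 4 genes, EV cells 380 to 524, SF minus EV 77 to 113 (77 without EV DMSO library 1), SF minus dLRRS 157 to 244 and SF minus LF 0 to 1. SF against EV gave 1954 to 2226 genes with DMSO and 2112 to 2521 with ligand, and SF intervals within the fold threshold numbered 8361 to 10831. Medians over the 72 h risers ran from 0.043 to 0.095 in SF cells and 0.53 to 0.55 in EV cells, and over the 24 h risers from 0.0288 to 0.0846 and from 0.34 to 0.35. The ratio of medians ran from 0.0800 to 0.177 at 72 h and 0.0852 to 0.250 at 24 h, and the slope from 0.184 to 0.339 and from 0.184 to 0.338.

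The SF and EV medians over the 72 h risers were 0.0351 and 0.36 at 5 CPM or more. With another list in place of the 72 h risers, the medians were 0.17 and 0.90 for the inhibitor list. They were 0.17 and 0.95 for the KDM2B-mAID list of the J2_7 table, and 0.12 and 0.83 for the dLRRS list. Over the 24 h risers they were 0.0246 and 0.23 at 5 CPM or more, and 0.0857 and 0.56 for genes of both times. The dLRRS list, the settings for SF minus LF, dLRRS and dCxxC and the fit without EV ligand library 1 were chosen after seeing the data. The cause of these moves was not tested.

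Same-numbered SF libraries had correlations of 0.29, -0.05 and 0.01, so the numbers do not pair them. With the replicate block SF cells called 4 genes, EV cells 494, SF minus EV 120, SF minus dLRRS 229, SF against EV 2167 with DMSO and 2431 with ligand. Of 6580 values of named genes under alternatives, 6195 kept direction and side of the threshold, 144 lost the call and 36 gained it, and 205, called in neither fit, changed sign. The 205 belong to 90 effects, among them the SF effects of BCOR, CCND2, PDGFA, KIT, EMILIN2, LRP4, PLEKHO1 and SLC12A7 and the SF minus EV differences of INSR (lowest -0.09) and CDKN1A (highest 0.07), so none of these has a settled direction. No value called in either fit changed sign. Depth limits the 51 of 469 genes raised in EV cells that had at most 3 counts in an SF group.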
